A study of Mus musculus with 4 samples.

Results

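The cytosolic route from citrate and acetate to palmitate was read here through 9 genes: Slc25a1, Acly, Acss2, Acaca, Acacb, Thrsp, Mid1ip1, Fasn and Me1. They were chosen by name, from the known steps of the pathway, with earlier results of these data known. Each was matched to at least 1 probe set with a single gene symbol, and they are 9 of the 18194 genes named on the arrays. Cerebrum RNA of mouse pups was measured in 4 pools on Affymetrix Mouse 430 2.0 arrays, each pool mixing 5 to 6 cerebral hemispheres and read on 1 array. All pools carried the floxed Mfsd2a allele on both chromosomes (2afl/fl). The 2aECKO pool (postnatal day 9) also carried Tie2-cre, which is active in endothelium and, as background, in blood cell lineages, and its control was 2afl/fl of day 9. The 2aiECKO pool (day 8) carried Cdh5ERT2-cre, an endothelial cre switched on by 4-hydroxytamoxifen (4-OHT) given after birth, and its control was 2afl/fl of day 8 that had received 4-OHT as well. In the labels of the 2aiECKO pool, title and genotype stand against a source name of 2aECKO, and the former were used. Mfsd2a carries lysophosphatidylcholine with docosahexaenoic acid (DHA) across the blood-brain barrier, and the comparisons ask how the lipogenic genes of the cerebrum stood when that transport was lost from endothelium.

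Fatty acids are built in the cytosol from acetyl-CoA. Citrate leaves mitochondria through the carrier Slc25a1 and is split by Acly (ATP citrate lyase), while Acss2 makes acetyl-CoA from acetate. Acaca carboxylates acetyl-CoA to malonyl-CoA, the committed step, and its relative Acacb does so at the mitochondrial surface, where malonyl-CoA restrains fatty acid oxidation. Mid1ip1 binds the carboxylase and favours its active polymer, and Thrsp (Spot 14), named for its response to thyroid hormone in liver, is its paralog. Fasn joins malonyl units into palmitate with NADPH, part of which comes from Me1, the cytosolic malic enzyme. Growing brain makes much of its own saturated fatty acid, and many genes of the route are known targets of Srebp-1.

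The 250 bases upstream of the annotated start are shown for the 3 members at least 25% higher in 2aECKO (Thrsp, Mid1ip1 and Fasn) and for Slc25a1, a member of the same route that was not. They were taken from RefSeq (build GRCm38.p6), in which all 9 members had a window. They read 5′ to 3′ on the strand of the gene, and capitals mark matches, on either strand, to the letters searched. The NF-Y motif was spelled CCAAT and the Sp1 motif was spelled GGGCGG. The E-box was searched as CACGTG and the sterol regulatory element was searched as TCACNCCAC.
Thrsp, chr7:97417551-97417800, minus strand: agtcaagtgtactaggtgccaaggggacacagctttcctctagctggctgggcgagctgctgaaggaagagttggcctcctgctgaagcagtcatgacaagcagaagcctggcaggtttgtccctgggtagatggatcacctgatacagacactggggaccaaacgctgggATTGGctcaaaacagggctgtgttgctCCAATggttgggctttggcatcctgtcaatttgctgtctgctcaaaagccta
Fasn, chr11:120824548-120824797, minus strand: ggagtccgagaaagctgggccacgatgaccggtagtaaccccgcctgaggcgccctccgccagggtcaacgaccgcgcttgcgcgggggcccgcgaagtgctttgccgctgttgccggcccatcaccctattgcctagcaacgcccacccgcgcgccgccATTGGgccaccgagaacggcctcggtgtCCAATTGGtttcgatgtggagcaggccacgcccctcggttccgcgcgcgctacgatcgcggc
Mid1ip1, chrX:10717115-10717364, plus strand: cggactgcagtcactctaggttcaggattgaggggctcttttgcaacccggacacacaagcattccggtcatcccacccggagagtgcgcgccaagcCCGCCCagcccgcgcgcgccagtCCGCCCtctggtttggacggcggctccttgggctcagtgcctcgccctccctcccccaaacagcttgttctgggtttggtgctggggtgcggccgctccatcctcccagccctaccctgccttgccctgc
Slc25a1, chr16:17928220-17928469, minus strand: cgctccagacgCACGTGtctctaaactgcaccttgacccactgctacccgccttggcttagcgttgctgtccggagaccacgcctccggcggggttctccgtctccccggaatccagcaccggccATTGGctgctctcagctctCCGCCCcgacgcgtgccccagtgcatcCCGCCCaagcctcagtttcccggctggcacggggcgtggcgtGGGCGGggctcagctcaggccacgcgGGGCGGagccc

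CCAAT was found 2 times upstream of Thrsp and 3 times upstream of Fasn, where 2 matches overlap, and it was not among the letters of the Mid1ip1 window. Over the 10 windows of the 9 members (Me1 has 2), CCAAT was in 6 windows, from 6 members. It was in 33.8% of 32851 windows of the same length upstream of all annotated starts. GGGCGG was in 5 of the 10 windows, from 5 members, among them Acly and Acss2 with 4 matches each, against 32.7% of all windows. Those 5 windows were 64 to 72% G or C, against a median of 52.4% over all windows, so the shares are not like for like. Me1 held CCAAT in 1 of its windows and GGGCGG in the other. The E-box was found at Slc25a1 alone among the 9, against 6.02% of all windows. The sterol element as spelled above was in 0 of the 10 windows and in 1.05% of all windows. At that share, 0 of 10 says nothing particular about the members, and other spellings of the element were not searched. The Acaca window held none of these motifs. It was 39.2% G or C, and whether its annotated start is the one used in cerebrum is not known here. A match is a match of letters. The members that were higher and those that were not did not separate by these motifs: Slc25a1 held the NF-Y, Sp1 and E-box letters, and Acacb those of NF-Y.

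**Figure D1:**
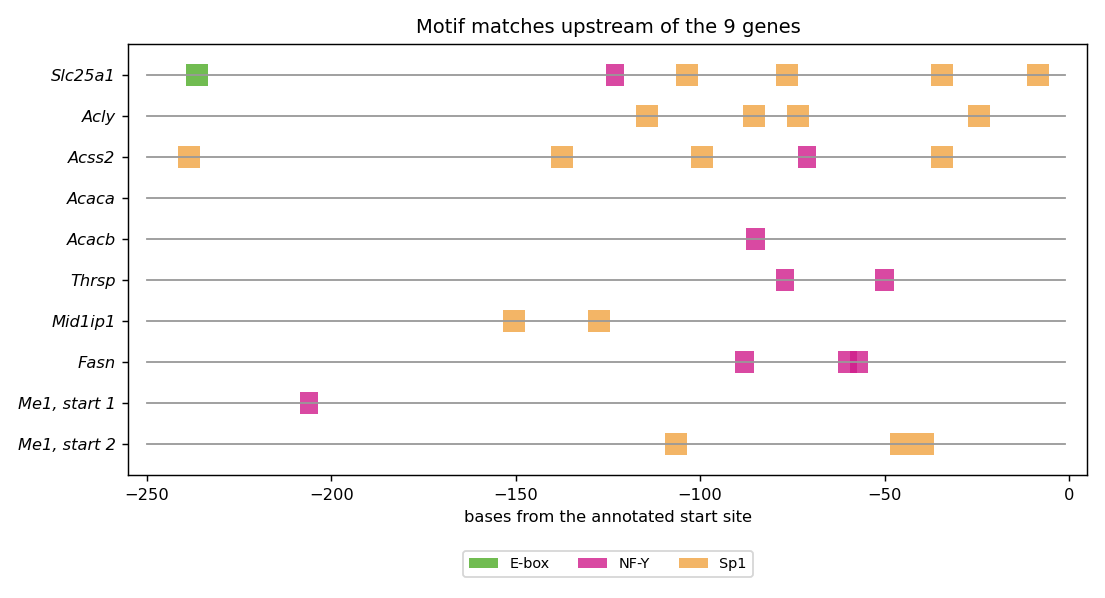
Positions of motif matches in the 250 bases upstream of each annotated start; the horizontal axis gives bases from the start, each grey line is 1 window, and coloured blocks are matches to the E-box, NF-Y or Sp1 letters on either strand. NF-Y letters lie upstream of Thrsp and Fasn but not of Mid1ip1, and also upstream of Slc25a1, Acss2, Acacb and Me1, which were not called higher. No window holds the sterol element letters TCACNCCAC, which 1.05% of all windows hold, and other spellings were not searched.

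Signals below are RMA values, not logged, and a fold is taken within a knockout and its own control, because the day 9 and day 8 pairs are on different scales (median signal 74.1 and 75.5 against 48.7 and 49.2). With 1 array per condition no value has a replicate error, so no test was made and every difference below is a difference between 2 pooled samples. The size rule calls a gene higher where the knockout pool reads 50 or more and exceeds its control by 25% or more (log2 0.32), and lower where the control pool reads 50 or more and the fold is 0.8 or less. In these bulk samples, fewer cells of a type and less RNA per cell cannot be told apart. The tissue label was checked on markers: all 10 neuronal and all 11 astrocyte markers read 50 or more on every array. The Mfsd2a probe set read 423 (2afl/fl), 410 (2aECKO), 369 (4-OHT control) and 299 (2aiECKO). Whether it lies in the deleted part of the gene is not known here, so it does not check the labels.

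In 2aECKO cerebrum the carboxylase regulators Thrsp and Mid1ip1 and the synthase gene Fasn were higher than in the control, while Acly, Acaca and Acss2, at 1.17 to 1.24-fold, did not reach the size rule. Thrsp had the largest log2 fold of the 9, 0.59. Of the 9 members, 3 were called higher and 0 lower, against 2.24% of 13010 genes called higher and 1.76% of 13044 called lower in this comparison. In 2aiECKO only Thrsp was called higher, with a log2 fold of 0.66, against 1.9% of 11926 genes, and 0 members were called lower, against 0.604% of 11914 genes. The median log2 fold of the members was 0.24 in 2aECKO and 0.03 in 2aiECKO, where the medians over the 12426 genes whose mean signal reached 50 were -0.01 and 0.00. Log2 folds were above 0 for 6 of the 9 in 2aECKO and 5 in 2aiECKO, beside 46.7% and 46.9% of all genes. The same 5 members were above 0 in both models, a pattern that 28.7% of 11901 genes showed, and 3 were below 0 in both at their brightest probe sets: Slc25a1, Acacb and Me1. Thrsp had the highest and Me1 the lowest log2 fold of the 9 in each model.

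**Figure D2:**
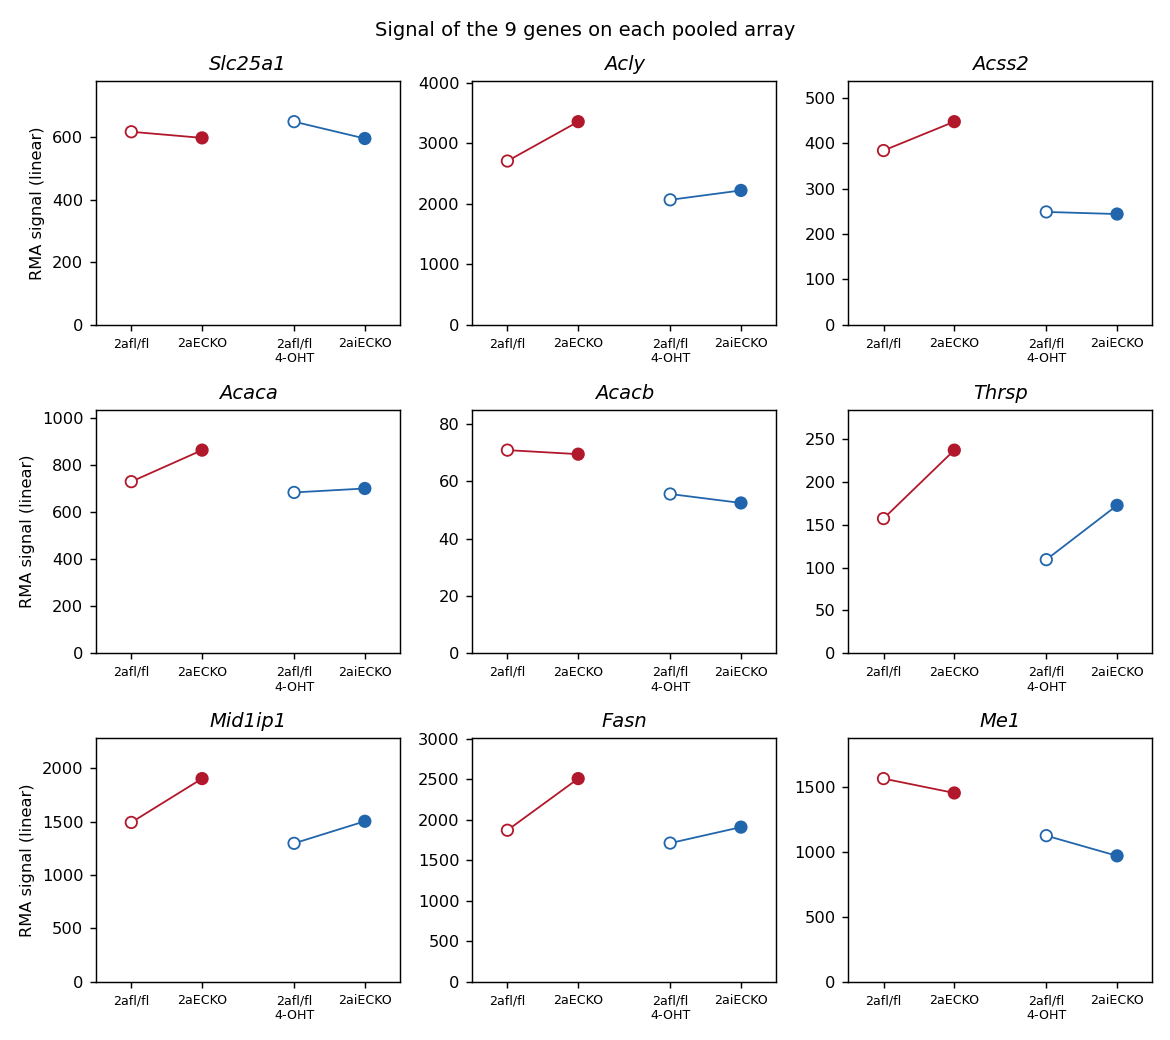
RMA signal (vertical axis, linear, from 0) of each of the 9 genes at its brightest probe set on the 4 pooled arrays; open circles are controls, filled circles knockouts, red the day 9 pair and blue the day 8 pair, with 1 array per point. Thrsp is higher in both knockouts, while Slc25a1, Acacb and Me1 are lower in both by less than the size rule.

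Citrate export and acetyl-CoA formation differed from gene to gene. Slc25a1, the citrate carrier, read 618 (2afl/fl) and 598 (2aECKO) on day 9, and 650 (4-OHT control) and 596 (2aiECKO) on day 8. Each knockout was thus a little below its control, by log2 folds of -0.05 and -0.12. Acly, the lyase that turns this citrate into acetyl-CoA, read 2706 (2afl/fl) and 3356 (2aECKO), for a log2 fold of 0.31, just under the size rule. On the day 8 arrays Acly read 2065 (4-OHT control) and 2220 (2aiECKO), for a log2 fold of 0.10. Acss2, the acetate enzyme, read 384 (2afl/fl) and 448 (2aECKO), for a log2 fold of 0.22, but 249 (4-OHT control) and 244 (2aiECKO), for a log2 fold of -0.03. So in 2aECKO the carrier stood near its control while Acly and Acss2, which form cytosolic acetyl-CoA, were above theirs. None of the 3 passed the size rule in either model.

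Neither acetyl-CoA carboxylase gene passed the size rule. Acaca, the cytosolic form that feeds synthesis, read 730 (2afl/fl) and 864 (2aECKO), for a log2 fold of 0.24, and 684 (4-OHT control) and 701 (2aiECKO), for a log2 fold of 0.03. Acacb, the mitochondrial surface form, read 70.8 and 69.4 on the day 9 arrays and 55.5 and 52.4 on the day 8 arrays, with log2 folds of -0.03 and -0.08. Its signals lie close to the minimum of 50, so small differences of this gene are poorly resolved, and the mean over both of its probe sets was above 0 in each model, at 0.02 and 0.03. The carboxylase regulators were both above their controls in both models, Mid1ip1 past the size rule in 2aECKO alone and Thrsp in each. Mid1ip1 read 1494 (2afl/fl) and 1905 (2aECKO), for a log2 fold of 0.35, and 1298 (4-OHT control) and 1505 (2aiECKO), for a log2 fold of 0.21. Its paralog Thrsp read 157 (2afl/fl) and 237 (2aECKO), a 1.51-fold difference, and 109 (4-OHT control) and 173 (2aiECKO), a 1.58-fold difference. Among genes reading 50 or more in the knockout, Thrsp stood at place 37 of 13010 by log2 fold in 2aECKO and at place 25 of 11926 in 2aiECKO. Mid1ip1 stood at places 240 and 630.

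Fasn and Me1, which supplies part of the NADPH, had opposite signs in each model, though Me1 was called in neither. Fasn, the synthase, read 1869 (2afl/fl) and 2506 (2aECKO), for a log2 fold of 0.42 and place 130 of 13010. On the day 8 arrays it read 1711 (4-OHT control) and 1907 (2aiECKO), for a log2 fold of 0.16 and place 1100 of 11926. Me1, which makes NADPH from malate, read 1563 (2afl/fl) and 1452 (2aECKO), for a log2 fold of -0.11. It read 1124 (4-OHT control) and 968 (2aiECKO), for a log2 fold of -0.21, at place 11618 of 11926. Against the whole array, 5 members lay above the 95th percentile of log2 folds in 2aECKO (0.23) and 0 below the 5th (-0.22). In 2aiECKO only Thrsp lay above the 95th percentile (0.22) and only Me1 below the 5th (-0.18).

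**Figure D3:**
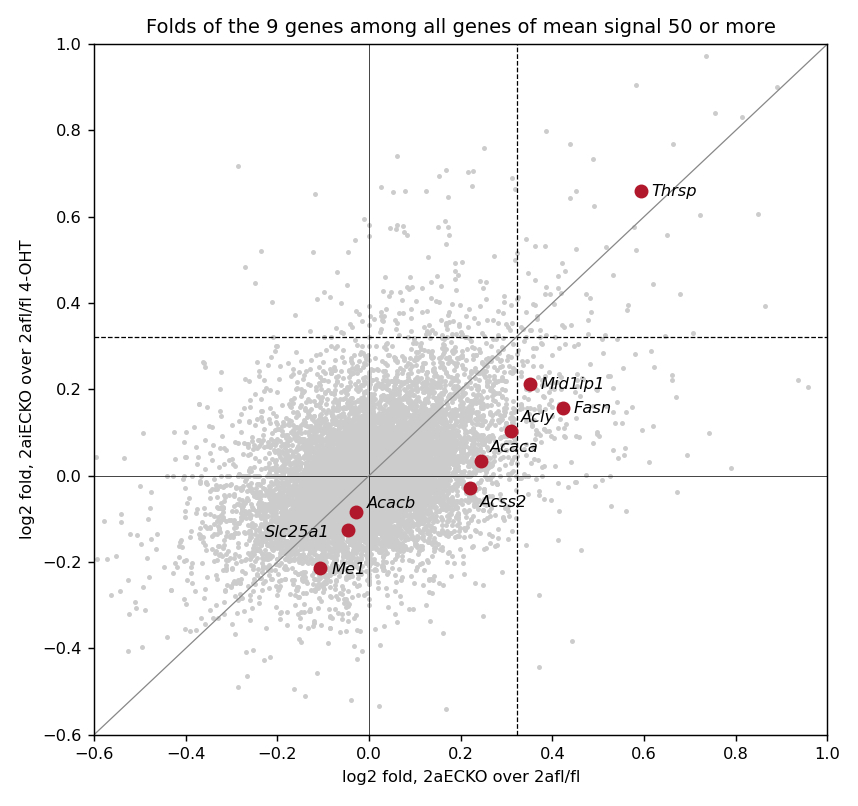
Log2 fold in 2aECKO over 2afl/fl (horizontal axis) against that of the 2aiECKO pair (vertical axis) for the 9 genes (red) and for all genes whose mean signal reached 50 (grey), with 13 genes outside the range drawn; dashed lines mark 25% higher and the diagonal marks equal folds. Thrsp alone of the 9 lies past both dashed lines, and the other 8 lie below the diagonal.

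Probe sets of the same gene did not always give the same fold, and why they differed was not tested. The 9 genes had 21 probe sets, of which 15 had a mean signal of at least 50. Of these 15, 11 had a log2 fold above 0 in 2aECKO and 9 in 2aiECKO. Acly had 3 probe sets of that brightness, with log2 folds from 0.27 to 0.46 in 2aECKO and from 0.10 to 0.15 in 2aiECKO, and the dimmest of the 3, with signals of 782 and 1073 on the day 9 arrays, passed the size rule there. The bright probe sets of Acss2 gave 0.22 and 0.23 in 2aECKO and -0.03 at each in 2aiECKO. So the bright probe sets of each of these genes had the same sign within a model. Those of Thrsp were also all above 0 but far apart, from 0.09 to 0.59 in 2aECKO and from 0.24 to 0.66 in 2aiECKO. The Thrsp set with the smallest fold read 96.4 (2afl/fl) and 102 (2aECKO), and 69.8 and 82.6 on the day 8 arrays. Me1 was below its control at each of its 2 probe sets, with -0.11 and -0.05 (log2) in 2aECKO and -0.21 and -0.04 in the inducible knockout. At the dimmer Acaca probe set the log2 folds were 0.29 and 0.08 and the dimmer Acacb set 0.08 and 0.15, at mean signals of 34.1 and 22.7. Fasn, Mid1ip1 and Slc25a1 had 1 probe set each, so nothing on the array checks their folds.

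**Figure D4:**
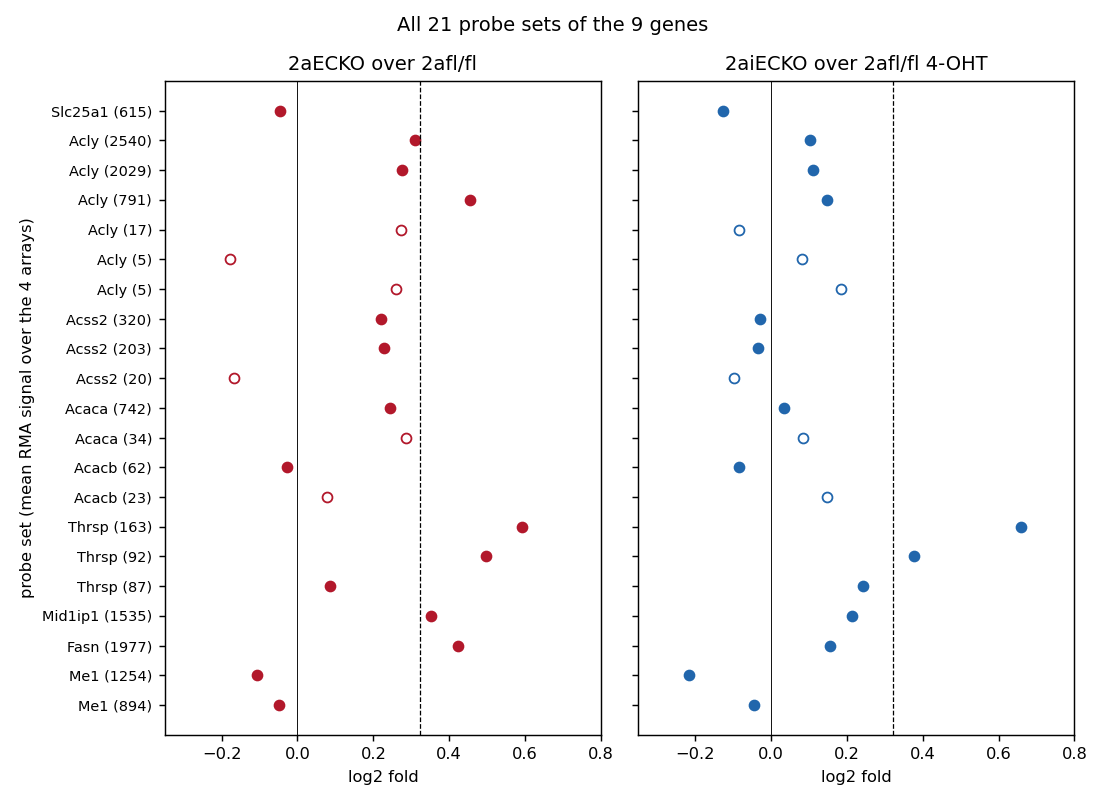
Log2 fold (horizontal axis) of all 21 probe sets of the 9 genes in 2aECKO (red, left) and 2aiECKO (blue, right), with the mean RMA signal over the 4 arrays in brackets; filled points have a mean signal of at least 50, open points less, and the dashed line marks 25% higher. Bright probe sets of a gene share a sign within each model, while those of Thrsp range from 0.09 to 0.59 in 2aECKO.

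Log2 folds, with their sign, were higher in 2aECKO than in 2aiECKO for 8 of the 9 members, all but Thrsp. The same held for 48.6% of 12426 genes. For Slc25a1, Acacb and Me1, below 0 in both models, the higher value was the smaller decrease. The log2 fold in 2aECKO exceeded that in 2aiECKO by 0.27 for Fasn, 0.25 for Acss2, 0.21 for Acaca and 0.21 for Acly. For Thrsp the difference was -0.07. With the controls exchanged between the models, on arrays quantile-normalized together, the count was 4 of 9 and the difference for Fasn -0.06. Both thus depend on which control is used. The exchange brings the difference between the control pools into every fold by construction, so it does not check the model difference. Over all genes the 5th and 95th percentiles of this difference were -0.23 and 0.22, so Fasn and Acss2 lay outside them. The models differ in age, cre line and 4-OHT, and their effects on this difference cannot be told apart; the difference itself was not tested. Between the 2 control pools, once all 4 arrays were put on 1 scale by quantile normalization, Slc25a1 had the highest log2 difference of the 9, 0.38 above 2afl/fl in the 4-OHT control, and Acss2 the lowest, at -0.28. Fasn stood at 0.17, Me1 at -0.19, Acly at -0.11 and Thrsp at -0.05. All 9 lay inside the range from -0.40 to 0.47 between the 5th and 95th percentiles of all genes for that pair of pools.

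Genes next to the route were read from 7 lists, whose counts stand beside the same 2.24% and 1.9% of all genes called higher and 1.76% and 0.604% called lower in 2aECKO and 2aiECKO. At those shares, lists of this length with 0 or 1 gene called say nothing particular about the list. In the use of newly made palmitate, 4 of 16 measured genes were called higher in 2aECKO, 1 in 2aiECKO and 0 lower in either, with median log2 folds of 0.18 and 0.12. Scd1, a desaturase that makes oleate, was called in both, at 0.86 and 0.39, and Fads2, Fads1 and Lpin1 in 2aECKO, at 0.58, 0.45 and 0.39. The brighter Scd2 had 0.29 and 0.18 and was called in neither. The elongase gene Elovl6, which takes palmitate as its substrate, had 0.09 and 0.01. Among 10 genes of NADPH supply other than Me1, 0 were called in either model, but the cytosolic and mitochondrial isocitrate dehydrogenase genes Idh1 and Idh2, at 0.29 and 0.27 (log2) in 2aECKO and 0.13 each in 2aiECKO, stood on the other side of 0 from Me1. Pgd, of the pentose phosphate path, had -0.01 and 0.09. Me2 and Me3, the mitochondrial malic enzymes, had -0.02 and -0.15 in 2aECKO and 0.00 and -0.24 in 2aiECKO.

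Of 15 genes from pyruvate entry to citrate, 1 was called higher in each model, the pyruvate dehydrogenase kinase gene Pdk4 at log2 folds of 0.36 and 0.40, and 0 were lower. The list's medians were -0.08 in 2aECKO and 0.00 in 2aiECKO, with Pdha1 at -0.15, Mpc1 at -0.13 and citrate synthase Cs at -0.03 in 2aECKO. The list of paralogs and alternative enzymes had medians of -0.01 and 0.01 over 11 genes, with 0 called in either model; Acss1, the mitochondrial acetate enzyme, had 0.10 and 0.09, and Aacs, which activates acetoacetate in the cytosol, 0.15 and 0.01. Of 8 genes of mitochondrial fatty acid synthesis, 0 were called in either model, and the medians were -0.02 and -0.01. Among 15 genes that modify or control the carboxylases, including the AMPK subunits, only Mid1 was called, at 0.62 in 2aECKO, with 0.29 in 2aiECKO; it encodes the binding partner for which Mid1ip1 is named. The AMPK catalytic subunit gene Prkaa2 had -0.18 and -0.22. Of 19 genes of transcriptional control, Srebf1 was called in both models, at 0.85 and 0.61, and Insig1 in 2aECKO at 0.40, while the list's medians were -0.02 and 0.02. Thra, the main thyroid hormone receptor gene of brain, had -0.02 and 0.02, and Mlxipl (ChREBP) was below a signal of 50 on every array.

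**Figure D5:**
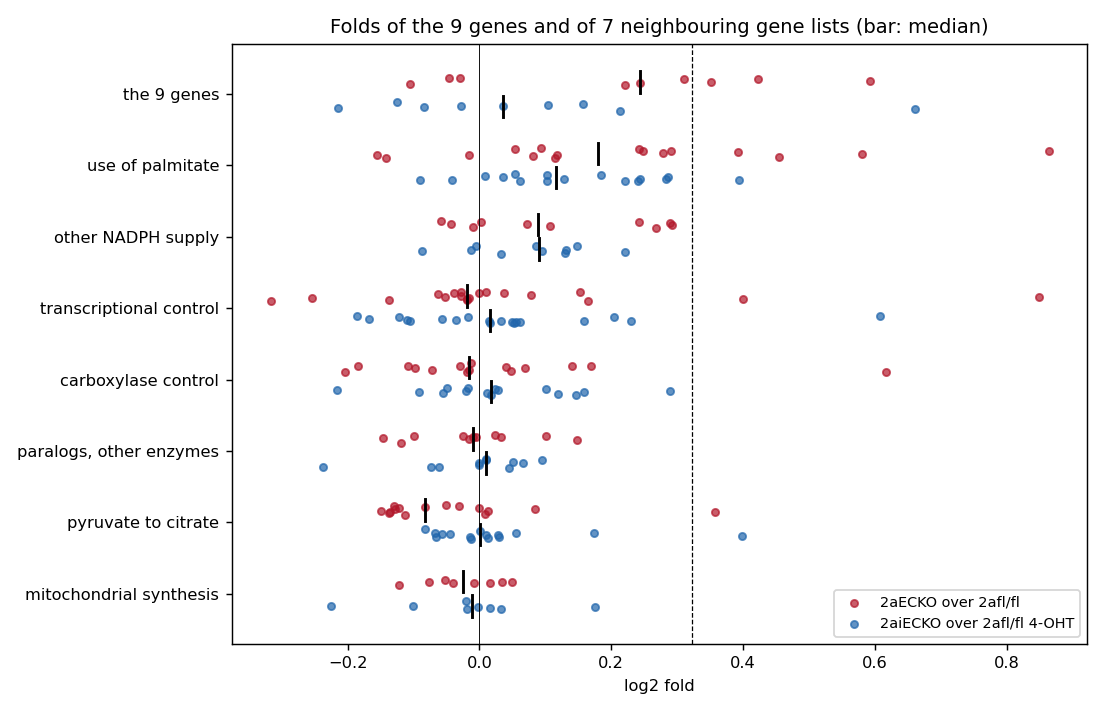
Log2 folds (horizontal axis) of the 9 genes and of 7 lists of neighbouring genes in 2aECKO (red) and 2aiECKO (blue); each point is 1 gene, black bars are medians and the dashed line marks 25% higher. The 9 genes and the genes that use palmitate have medians of 0.24 and 0.18 in 2aECKO, while the pyruvate to citrate list has -0.08.

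The genes whose pair of log2 folds lay nearest to a member, by Euclidean distance over the 2 comparisons among genes whose mean signal reached 50, were for Fasn Lhx9, Zcchc7 and Insig1, at distances of 0.011, 0.012 and 0.024. For Acly they were Pfas, Zic1 and Pnn, at 0.010 to 0.017. For Mid1ip1 they were Ctnna1, Mir99ahg and Enkur, at 0.008 to 0.015. Thrsp had no close neighbour: the nearest, Avp, Mt1 and Otx2, lay at 0.087, 0.109 and 0.118. With 2 values per gene such nearness is a description only.

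Markers of several cell types also stood apart from their controls on the same arrays. Beside 46.7% and 46.9% of all genes above 0, of 11 astrocyte markers 10 had a log2 fold above 0 in 2aECKO and 11 in 2aiECKO, with medians of 0.25 and 0.27 and summed signals of 25530 in 2afl/fl, 28833 in 2aECKO, 17817 (4-OHT control) and 21315 (2aiECKO). All 6 meningeal markers were above 0 in both, with medians of 0.41 and 0.22 and sums of 13843, 17094, 9923 and 11739 in the same order, and so were all 6 choroid plexus markers, with medians of 0.24 and 0.16 and sums of 12903, 14881, 10634 and 11966. Nuclear-retained RNAs had medians of 0.44 and 0.23 over 6 genes and sums of 15857, 21116, 7259 and 8468. Of 9 microglial markers 7 were called higher in 2aiECKO, against 1.9% of all genes, where their median was 0.45, against 0.08 in 2aECKO, and their sums were 4167, 4397, 3715 and 5324. In 2aECKO 0 of them were called higher and 2 lower, against 2.24% and 1.76% of all genes. The 2 were P2ry12 at -0.36 and Tmem119 at -0.46, and Tmem119 was also below 0 in 2aiECKO, at -0.14. Myelin markers, from a cell type that makes much lipid, had medians of -0.04 and 0.25 over 9 genes and sums of 10123, 10766, 5823 and 7355. Neuronal markers were slightly lower, with medians of -0.09 and -0.05 and sums of 50920, 48430, 39793 and 38237. Endothelial markers had medians of 0.04 and -0.13 over 9 genes and sums of 2990, 3069, 2337 and 2215, and mural markers medians of 0.05 and -0.19 over 6 genes and sums of 3879, 3795, 2689 and 2369. The part of these markers in the folds of the 9 genes was not tested. For adipose tissue, where Thrsp and the other lipogenic genes are abundant, the defining marker Adipoq read from 8.75 to 11.1 on the 4 arrays, Lep from 9.99 to 19.1, Cidec from 9.52 to 16.2 and Fabp4 from 17.1 to 26.3. Retn read from 43.7 to 81.6 and Lipe, also a lipase of other tissues, from 67.0 to 75.3. The 6 adipocyte markers measured had medians of -0.12 in 2aECKO and -0.01 in 2aiECKO, with sums of 230, 208, 160 and 160. RMA gives no value of 0, so none of these markers is listed at 0.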

How the data were processed

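For each genotype the authors combined RNA of 5 to 6 cerebral hemispheres in equal parts into a single pool, and each pool was read on 1 Affymetrix Mouse 430 2.0 array. Every deposited value is an array intensity that is not logged. Per the methods it was made by RMA in the R package affy, which subtracts background and combines the probes of a set. RMA also gives all arrays of a run the same distribution of probe values. The deposited median signals are 74.1 and 75.5 for the day 9 pair and 48.7 and 49.2 for the day 8 pair. The 4 arrays as deposited thus do not share 1 distribution. Partek 6.6 is the tool listed in the submitters' processing notes. The 45101 probe sets were named from the platform annotation: 34958 had 1 symbol, 932 several and 9211 none here. A further probe set, shared by Acss2 and Gssos2, was not used. Of the probe sets with 1 symbol, 34754 had a gene identifier in RefSeq GRCm38.p6, and 0 symbols needed an update. Log2 was taken, and the probe set with the highest mean log2 over the 4 arrays stood for a gene.

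The members and lists were chosen with earlier results of these data known, and lipogenic genes were among those the study reported from these arrays, so no count here is independent evidence of direction. Lists were described by counts and medians. Genes named were the 9 members, genes of the lists and, for each member, the 3 genes nearest in both folds. Listed genes not matched to a probe set with 1 symbol were not analysed here. A first run of the size rule on simulated folds well past its limit checked the code only. Their recovery followed from the settings and says nothing about the error of the folds here. Alternatives tried were averaging a gene's probe sets, leaving out those of less specific design, removal of an intensity trend (loess fraction 0.3), centring, joint quantile normalization, exchanged or averaged controls, a minimum signal of 100 or none, and a fold of 1.5. The number of arrays limits the precision. Python 3.11.15, numpy 2.4.6, pandas 2.3.3, statsmodels 0.14.6 and matplotlib 3.10.9 were used.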

Additional observations from a re-analysis of the deposited data

Results flagged for a closer look

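Acss2 had opposite signs in the 2 models, with a log2 fold of 0.221 in 2aECKO and of -0.0273 in 2aiECKO at its brightest probe set. The 2aiECKO value lay between the quartiles of genes whose mean signal reached 50 (-0.07 and 0.07), so its sign is not resolved. Its other bright probe set gave 0.23 and -0.03. Neither value reached the size rule, though in 2aECKO Acss2 passed it with exchanged controls (0.50) or the mean of both (0.36). These 2 settings bring in the difference between the control pools, -0.28 for Acss2 on jointly quantile-normalized arrays. Averaging the 3 probe sets, the dimmest at a mean signal of 20.1, gave 0.09 in 2aECKO and -0.05 in 2aiECKO. Each value rests on 1 pooled array per condition, and the difference was not tested.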

How the results depend on the processing

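Thrsp was called higher in both models under all 6 alternatives that change its value, with log2 folds from 0.39 to 0.68 in 2aECKO and from 0.43 to 0.66 in 2aiECKO. In 2aECKO Fasn was called in 4 of the 5 that change it, Mid1ip1 in 3 of 5, Acly in 4 of 6 and Acss2 in 2 of 6 (0.50 with controls exchanged, 0.36 against the mean of both, and 0.09 over all its probe sets), so the number of members called higher there ranged from 1 to 4; the 1 came with a required fold of 1.5. The median in 2aECKO ranged from 0.23 to 0.31. In 2aiECKO the median, 0.03, became 0.0593 over the mean of all probe sets, 0.0727 against the mean of both controls and 0.252 with controls exchanged, the last 2 on arrays quantile-normalized together. With controls exchanged in that way 1 member was called lower in 2aECKO, Slc25a1 at -0.42, and 1 in 2aiECKO, Me1 at -0.40. Exchange and averaging bring the difference between the control pools, of different age and treatment, into every fold by construction. Of 126 member values under alternatives, 115 stayed on the same side of the size rule, 8 became called and 3 were no longer called. Part of the 115 could not have moved. The brightest probe set of each member was of the more specific kind, so dropping the others left every member value unchanged. Averaging probe sets likewise could not change Fasn, Mid1ip1 or Slc25a1, which have 1 each. The 115 is therefore not a measure of stability. No called value changed sign, though uncalled ones did: Me1 in 2aECKO ranged up to 0.09, Slc25a1 in 2aiECKO up to 0.26, and Acacb from -0.30 to 0.02 in 2aECKO and from -0.09 to 0.16 in 2aiECKO. The number of members with the higher signed log2 fold in 2aECKO ranged from 4 with controls exchanged to 9 after joint quantile normalization alone. Signals near 50 limit Acacb, and no alternative supplies the missing replicates.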
